A study of Mus musculus with 24 samples.

Results

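The splicing regulators of the muscleblind-like family (Mbnl1, Mbnl2 and Mbnl3), the RBFOX family (Rbfox1 and Rbfox2), the CELF family (Celf1 and Celf2) and the RNA-binding motif proteins Rbm20, Rbm24 and Rbm38 were followed across optically paced muscle cultures. The members were all genes of the count and TPM tables carrying one of these 10 symbols. All 10 were found once, and all 10 passed the filter on low counts that left 13315 of 56941 listed genes for testing.

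The cultures were made from C2C12, an immortalised mouse myoblast line, of genotype ChR2::tdTomato. Every group, the unstimulated Control included, therefore carried the light-gated cation channel channelrhodopsin-2. The cells were differentiated into contracting myotubes on a grooved fibrin gel and were lit daily for 60 minutes at 1, 4 or 10 Hz, or left unlit as the Control. Each group held 6 libraries, described by the study as biological replicates from separate wells. The cultures come from 1 line of immortalised cells, all groups twitched spontaneously, and the labels give no genotype without the channel.

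Vertebrate muscle changes the splicing of many contractile, channel and scaffold transcripts as it matures. MBNL proteins are zinc-finger proteins that bind pre-mRNA and favour adult exon choices, and they are the proteins trapped by CUG repeats in myotonic dystrophy. CELF1 binds GU-rich elements, often acts on the same exons in the opposite, embryonic direction, and also promotes decay of bound mRNAs. RBFOX proteins favour or repress exons according to where they bind beside them, RBM20 represses exons of titin, and RBM24 and its paralog RBM38 bind both introns and mature mRNAs such as those of myogenin and the cell cycle inhibitor p21.

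Positions of the members are given here in build GRCm39 from GENCODE M39, in which all 10 identifiers were found. Celf1 lies at chr2:90770584-90849842 on the plus strand and Rbm38 at chr2:172862291-172876527 on the plus strand. Rbm20 lies at chr19:53665697-53855514 on the plus strand, and Mbnl3 at chrX:50202383-50295478 on the minus strand. Rbfox1 spans chr16:5124665-7230343 on the plus strand, the longest member at 2105.7 kb, and it overlaps 15 annotated antisense genes. Rbm38 overlaps 2 antisense genes and Celf1 none. The counting is not stated to use strand, so reads from such partners cannot be told apart from the members.

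Paralogs of these families are similar in sequence, so the extent to which a short read could belong to more than 1 of them was measured. The longest run of identical bases between the annotated coding sequences of each main paralog pair is shown because these runs are what a read would have to fit inside to be ambiguous. All stand 5′ to 3′ in the sense direction.
Mbnl1 and Mbnl2: agagagaactgcaaatatcttcatcc
Rbfox1 and Rbfox2: accgtggtagagggccgtaaaatcgaggt
Celf1 and Celf2: ctgagcaagtgctttggttttgt
Rbm24 and Rbm38: ctgccctaccacaccaccgacgc
The runs measured 26 bases for Mbnl1 with Mbnl2, 29 for RBFOX, 23 for CELF and 23 for Rbm24 with Rbm38. Over whole annotated transcripts, Mbnl3 shared a run of 41 bases with Mbnl2 and of 27 with Mbnl1. No stretch of 50 bases, which is the read length, was shared between the annotated transcripts of any pair of the 10 members. Stretches shared with genes outside the list made up at most 0.16% of a member's 50-base stretches, the value of Celf2, and none of those of Rbm20, Rbm24, Rbm38, Rbfox1 or Rbfox2.

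Mbnl1 and Mbnl2 also share an alternative coding exon of 54 bases, known to promote nuclear localisation of the protein and to be skipped under the control of MBNL itself. The exon is shown because it is among the places where isoforms of both main MBNL genes differ, and capitals mark the bases that differ between the paralogs. The Mbnl1 copy lies at chr3:60522104-60522157 and the Mbnl2 copy at chr14:120633124-120633177, both on the plus strand of GRCm39.
Mbnl1: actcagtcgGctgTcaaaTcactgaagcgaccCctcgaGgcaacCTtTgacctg
Mbnl2: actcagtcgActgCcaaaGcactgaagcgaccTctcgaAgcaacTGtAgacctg
The copies differed at 8 of 54 bases and were 85.2% identical. The exon is annotated in 5 of 33 coding transcripts of Mbnl1 and in 16 of 48 of Mbnl2. Gene-level tables do not count its inclusion.

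The libraries held 8052369 to 18159144 estimated counts. Mitochondrial genes took 2.56 to 5.03% of TPM in Control libraries, and 4 stimulated libraries lay above that range, namely 1 Hz replicates 4 and 6 and 4 Hz replicates 3 and 6, at 6.05 to 12.6%. Below the range lay 4 Hz replicates 1 and 4, at 0.876% and 2.29%, which stay in the fits that leave out the 4 high libraries. Genes of ribosomal proteins took 14.4 to 16.3% of TPM in Control libraries, up to 20.2% at 1 Hz and up to 22.0% at 4 Hz, the value of replicate 1. All 11 myotube markers had a mean of 1 TPM or more in every group, although the labels call the cells myoblasts, with 1 called lower at 1 Hz and 3 higher and 1 lower at 4 Hz. Of 4 cycling markers 1 was higher at 1 Hz, and 1 was higher and 2 lower at 4 Hz. Of 4 cardiac markers Nppa and Myl7 were at 0 in every Control library, Myh6 and Tnni3 had means of 1 TPM or more, and 1 of the 2 tested was higher at 4 Hz. The summed level of the cardiac list ran from 39.0 to 61.5 TPM in Control and from 44.0 to 84.8 TPM at 4 Hz. Of 4 macrophage markers Ptprc and Adgre1 were at 0 in every Control library, and the summed level, 74.5 to 103 TPM in Control and 56.3 to 93.9 TPM at 4 Hz, was nearly all Cd68, which was not called. Of 4 markers of reserve cells, 2 were higher at 1 Hz and 3 at 4 Hz, and 1 was lower at each. Their summed level was 295 to 330 TPM in Control, 272 to 345 TPM at 1 Hz and 260 to 339 TPM at 4 Hz. Of 4 fibroblast markers, 2 were higher and 1 lower at both frequencies. Their summed level was 143 to 192 TPM in Control, 125 to 268 TPM at 1 Hz and 147 to 242 TPM at 4 Hz. All marker calls were made on the count scale. On it 19.2% of all genes were higher and 18.1% lower at 1 Hz, and 27.5% and 23.9% at 4 Hz. Of 4 neuronal markers only Tubb3 reached a mean of 1 TPM, and the summed level of the list, 58.9 to 85.0 TPM in Control libraries, was 21.9 to 43.7 TPM at 1 Hz and 22.0 to 41.8 TPM at 4 Hz, with Rbfox3 and Snap25 at 0 in every Control library. The summed level of 4 fat cell markers reached at most 1.04 TPM and that of 4 endothelial markers 0.961 TPM. The part of these differences in the results on the regulators was not tested, and in bulk RNA fewer cells of a type and less RNA per cell cannot be told apart.

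In Control cultures the order of the members by TPM, which is corrected for transcript length, ran from Mbnl2 at 142 ± 9.58 TPM (SD, n = 6) to Mbnl3 at 3.25 ± 0.703 TPM. Rbm38 followed Mbnl2 at 119 ± 15.7 TPM, then Rbfox2 at 84.5 ± 5.72 TPM and Mbnl1 at 73.2 ± 7.33 TPM. Rbm24 stood at 51.1 ± 4.66 TPM, Celf1 at 48.4 ± 6.38 TPM, Celf2 at 29.0 ± 2.88 TPM, Rbm20 at 20.1 ± 2.06 TPM and Rbfox1 at 3.52 ± 1.45 TPM. The libraries of neighbours overlapped among Mbnl2, Rbm38, Rbfox2 and Mbnl1, between Rbm24 and Celf1, and between Rbfox1 and Mbnl3. They did not overlap between Mbnl1 and Rbm24, Celf1 and Celf2, Celf2 and Rbm20, or Rbm20 and Rbfox1. Mbnl2 lay above 92.0% of expressed genes, whereas Mbnl3, the MBNL member linked to undifferentiated myoblasts, lay above 20.1%.

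**Figure D1:**
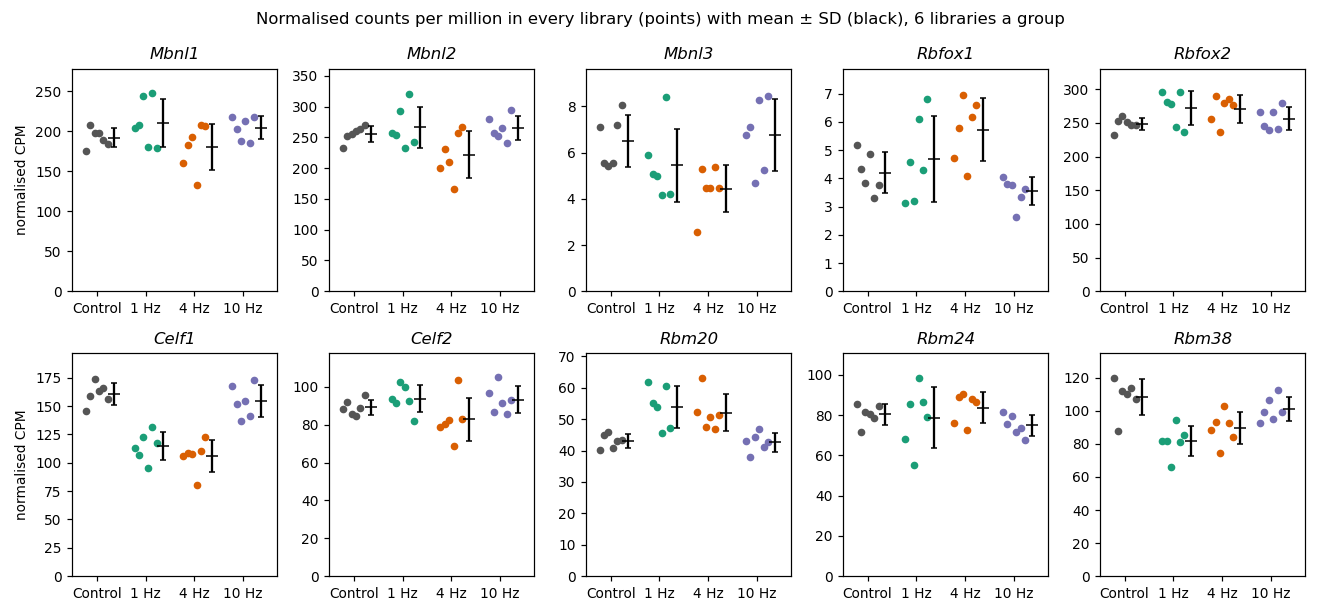
Normalised counts in CPM (vertical axes starting at 0, a scale of its own for each gene) of the 10 splicing regulators in every library, with 6 points for each of Control, 1 Hz, 4 Hz and 10 Hz and the mean ± SD in black. All Celf1 points at 1 and 4 Hz lie below all Control points, whereas the 10 Hz points overlap those of the Control.

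Celf1 and Rbm38 fell at both 1 and 4 Hz and Mbnl3 fell at 4 Hz, while Rbm20 rose at both rates and Rbfox1 at 4 Hz on the count scale. Neither Rbm20 nor Rbfox1 was called on the TPM scale, where their values were below 0. At 4 Hz Rbm20 stood there at -0.22. The median at 4 Hz was -0.23 over the 12603 genes tested on both scales and -0.21 over all genes of the TPM fit. No member was called at 10 Hz. The calls come from edgeR's quasi-likelihood test on counts with Benjamini-Hochberg adjustment over all tested genes, at an adjusted p under 0.05. At 1 Hz 1 of 10 members was higher and 2 were lower, where 19.2% of all tested genes were higher and 18.1% lower. At 4 Hz 2 of 10 were higher and 3 lower, beside 27.5% and 23.9% of all genes. The members were thus called at shares near those of the whole transcriptome. The median of the members' log2 fold changes was 0.06 at 1 Hz, where that of all tested genes was 0.04, and -0.10 at 4 Hz, where it was 0.06.

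**Figure D2:**
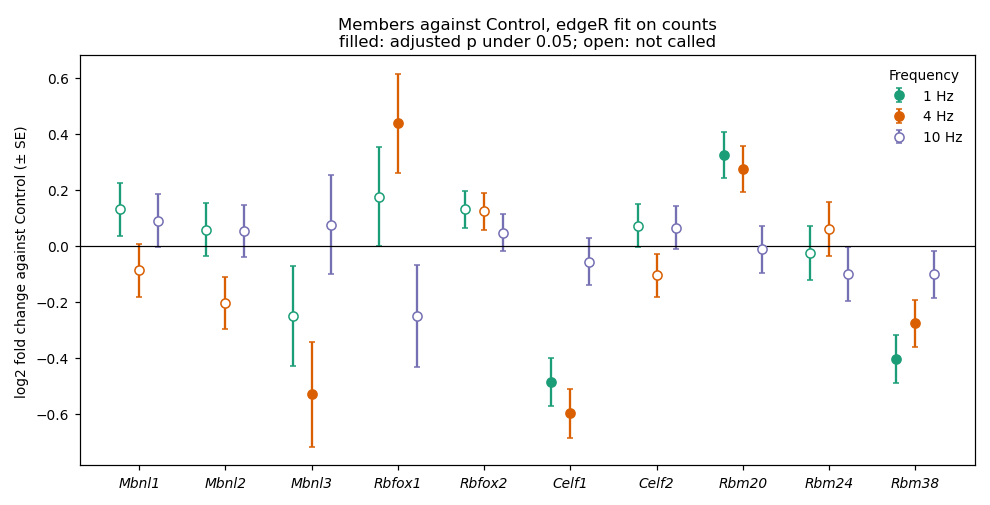
Log2 fold change against Control (vertical axis, with SE) of each member at 1, 4 and 10 Hz in the edgeR fit over 24 libraries. Filled points passed an adjusted p of 0.05: Celf1, Rbm38 and Rbm20 at 1 and 4 Hz, and Mbnl3 and Rbfox1 at 4 Hz, of which Rbm20 and Rbfox1 have the opposite sign on the unscaled TPM scale and were not called there.

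Celf1 showed the largest decrease among the members. Its normalised count, in CPM after TMM scaling, had a lowest, median and highest value of 145, 161 and 174 in Control libraries. The same values were 95.4, 115 and 131 at 1 Hz, 80.4, 108 and 122 at 4 Hz, and 137, 153 and 173 at 10 Hz. The 1 and 4 Hz libraries did not overlap the Control libraries, and of the 10 Hz libraries 2 of 6 lay below every Control library and the others within the Control range. Celf1 fell by 0.49 on the log2 scale at 1 Hz (SE 0.09, adjusted p = 9.6e-05, edgeR) and by 0.60 at 4 Hz (SE 0.09, adjusted p = 3.8e-06). At 10 Hz the log2 fold change was -0.06, with an interval of -0.23 to 0.11 (2 SE either side). The calls at 1 and 4 Hz held in every alternative fit and with any 1 library left out, although the 1 Hz value does not reach a log2 fold change of 0.5 in size.

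The direct test between frequencies separated 10 Hz from both slower rates for Celf1. Its level at 10 Hz was higher than at 1 Hz by 0.43 on the log2 scale (adjusted p = 0.00063, edgeR) and higher than at 4 Hz by 0.54 (adjusted p = 2.2e-05). All 10 Hz libraries lay above all 4 Hz libraries. Groups that do not overlap were found for 14.1% of all tested genes at 1 Hz against Control, 27.6% at 4 Hz against Control and 18.9% at 10 Hz against 4 Hz.

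Celf2, the paralog of Celf1 that prevails in heart and brain, was not called at any frequency in the edgeR fit of all libraries. On log2(TPM + 1) it was called lower at 4 Hz, close to the threshold. Its normalised CPM had a lowest, median and highest value of 84.5, 88.6 and 95.6 in Control, 82.1, 92.8 and 102 at 1 Hz, 68.7, 81.4 and 103 at 4 Hz, and 85.5, 92.3 and 105 at 10 Hz. The ranges overlapped in all groups, although 5 of 6 libraries at 4 Hz lay below every Control library and the remaining one above them all. The log2 fold change at 4 Hz was -0.11, with an interval of -0.26 to 0.05. Without 4 Hz replicate 5 it was -0.20 and passed the test (adjusted p = 0.022, edgeR).

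Within the CELF family the share of Celf1 in the summed TPM was 62.4% ± 3.27 (SD, n = 6) in Control, 53.2% ± 3.73 at 1 Hz, 52.8% ± 3.77 at 4 Hz and 59.8% ± 2.93 at 10 Hz. A share of 58.1%, the lowest in Control, exceeded 5 of 6 libraries at 1 Hz and all 6 at 4 Hz, and the 10 Hz libraries, from 54.4 to 62.8%, overlapped those of the Control. The summed TPM of the family was 77.3 ± 7.44 in Control and 48.0 ± 8.63 at 4 Hz.

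**Figure D3:**
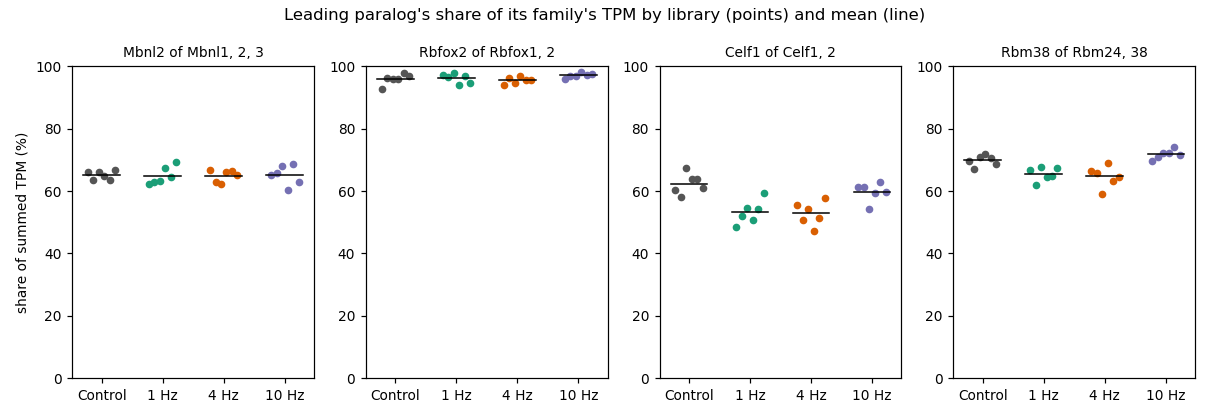
Share of the leading paralog in the summed TPM of its family (vertical axis, percent) by library and group, with the group mean as a line. The share of Celf1 averages 62.4% in Control and 52.8% at 4 Hz, while that of Mbnl2 averages 65.1% in Control and 64.9% at 4 Hz.

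Rbm38, which binds and stabilises mRNAs such as that of p21 in differentiating muscle cells, fell at the slower rates. Its normalised CPM had a lowest, median and highest value of 88.1, 111 and 120 in Control. The corresponding values were 65.9, 81.9 and 94.5 at 1 Hz, 74.5, 90.5 and 103 at 4 Hz, and 93.0, 99.4 and 113 at 10 Hz. Of the 1 Hz libraries 5 of 6 lay below every Control library, and of the 4 Hz libraries 2 of 6 did, the lowest Control library standing at 88.1 CPM. Rbm38 fell by 0.40 on the log2 scale at 1 Hz (SE 0.08, adjusted p = 6e-04, edgeR) and by 0.28 at 4 Hz (SE 0.08, adjusted p = 0.0083). Its 10 Hz value was -0.10, with an interval of -0.27 to 0.07. At 10 Hz it was higher than at 1 Hz by 0.30 on the log2 scale (adjusted p = 0.01, edgeR), while its difference of 0.17 from 4 Hz was not called (adjusted p = 0.092, edgeR).

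Rbm24, which acts on muscle exons and stabilises the mRNA of myogenin, was not called at any frequency. The lowest, median and highest normalised CPM were 71.4, 81.0 and 85.5 in Control, 55.3, 82.1 and 98.4 at 1 Hz, 72.6, 87.1 and 90.5 at 4 Hz, and 67.5, 74.6 and 81.4 at 10 Hz. The 1 Hz libraries spread to both sides of the Control range. Its log2 fold change was -0.02 at 1 Hz and 0.06 at 4 Hz, with an interval of -0.13 to 0.25 at 4 Hz. The share of Rbm38 in the summed TPM of this pair was 69.8% ± 1.73 (SD, n = 6) in Control, 65.5% ± 2.14 at 1 Hz, 64.7% ± 3.47 at 4 Hz and 71.8% ± 1.5 at 10 Hz.

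Bases before the start sites of Celf1 and Rbm38, the pair of members that fell at both slower rates, are shown beside those of Rbm24, the paralog that was not called. They are the 250 bases upstream of the RefSeq start in build GRCm38.p6, 5′ to 3′ on the gene's strand, which is the plus strand for all of them. Capitals mark E-boxes (CANNTG, which reads the same on both strands as a pattern) and GC boxes (GGGCGG or CCGCCC).
Celf1, chr2:90940147-90940396: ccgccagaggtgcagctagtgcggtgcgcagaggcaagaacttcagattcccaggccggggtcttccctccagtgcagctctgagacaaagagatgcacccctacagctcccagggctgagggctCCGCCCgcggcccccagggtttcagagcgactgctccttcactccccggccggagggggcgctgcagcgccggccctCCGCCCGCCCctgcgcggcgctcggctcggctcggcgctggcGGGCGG
Rbm38, chr2:173021652-173021901: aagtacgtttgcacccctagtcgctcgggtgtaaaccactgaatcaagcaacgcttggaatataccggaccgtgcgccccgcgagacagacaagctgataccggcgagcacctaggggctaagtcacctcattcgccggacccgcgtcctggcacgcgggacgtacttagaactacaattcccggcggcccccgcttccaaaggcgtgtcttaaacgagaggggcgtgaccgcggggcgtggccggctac
Rbm24, chr13:46418050-46418299: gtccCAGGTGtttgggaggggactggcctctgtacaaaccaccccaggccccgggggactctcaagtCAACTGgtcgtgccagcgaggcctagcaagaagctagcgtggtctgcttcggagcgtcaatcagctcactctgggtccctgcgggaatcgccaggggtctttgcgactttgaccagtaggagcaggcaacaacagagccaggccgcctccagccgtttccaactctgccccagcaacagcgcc
The Celf1 window held 4 GC boxes, of which a neighbouring pair overlapped, and no E-box. The Rbm38 window held neither, and the Rbm24 window held 2 E-boxes, CAGGTG and CAACTG, and no GC box. Among 32817 RefSeq windows of the same length, 66.2% held an E-box and 32.7% a GC box. The G and C content was 72.4% for Celf1, 61.6% for Rbm38 and 62.4% for Rbm24, beside a median of 52.4%. A match says only that these letters are in the window.

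Rbm20, which governs the exon content of titin in striated muscle, rose on the count scale and was not called in TPM, where its sign turned. Its normalised CPM had a lowest, median and highest value of 40.1, 43.3 and 45.8 in Control, 45.6, 54.4 and 61.8 at 1 Hz, 46.7, 51.1 and 63.2 at 4 Hz, and 37.8, 42.8 and 46.7 at 10 Hz. At 1 Hz 5 of 6 libraries and at 4 Hz all 6 lay above every Control library. It rose by 0.33 on the log2 scale at 1 Hz (SE 0.08, adjusted p = 0.0032, edgeR) and by 0.28 at 4 Hz (SE 0.08, adjusted p = 0.0072). The 10 Hz value was -0.01, with an interval of -0.18 to 0.15. Against 1 Hz its 10 Hz log2 difference was -0.34 (adjusted p = 0.0037, edgeR), and against 4 Hz -0.29 (adjusted p = 0.0064, edgeR), the latter with the opposite sign on log2(TPM + 1), at 0.06, where the median of all genes was 0.22.

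The increase of Rbm20 was not called on the TPM scale. On it the median of the 12603 genes tested on both scales lay at -0.15 at 1 Hz and -0.23 at 4 Hz. In TPM its mean was 20.1 ± 2.06 (SD, n = 6) in Control, 20.3 ± 7.27 at 1 Hz and 17.6 ± 4.90 at 4 Hz. On the log2(TPM + 1) scale, fitted with limma, the change came to -0.05 for 1 Hz (adjusted p = 0.87) and -0.22 for 4 Hz (adjusted p = 0.37). With TPM rescaled by TMM, a setting chosen after the data were seen, limma gave 0.11 for 1 Hz (adjusted p = 0.58) and 0.03 for 4 Hz (adjusted p = 0.85). Its ratio of count to TPM, which tracks the estimated transcript length, was higher by 0.19 on the log2 scale at 4 Hz (SE 0.08, adjusted p = 0.17, limma). Without any filter on low counts the 4 Hz increase was 0.23 and was not called (adjusted p = 0.057, edgeR).

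Rbfox1, the RBFOX gene induced in mature muscle and neurons, was close to the lowest of the members. Its counts ranged from 27 to 100 across all libraries. Its normalised CPM had a lowest, median and highest value of 3.29, 4.07 and 5.20 in Control, 3.12, 4.43 and 6.83 at 1 Hz, 4.08, 5.99 and 6.96 at 4 Hz, and 2.63, 3.71 and 4.06 at 10 Hz. At 4 Hz 4 of 6 libraries lay above every Control library, and all 10 Hz libraries lay below all 4 Hz libraries. Rbfox1 rose by 0.44 on the log2 scale of counts at 4 Hz (SE 0.18, adjusted p = 0.04, edgeR) and stood lower at 10 Hz than at 4 Hz by 0.69 (SE 0.18, adjusted p = 0.0037).

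The call at 4 Hz for Rbfox1 was near the threshold. Leaving out any of 8 of the 12 libraries of this comparison, Control replicates 2, 3, 5 and 6 and 4 Hz replicates 2, 3, 5 and 6, raised the adjusted p above 0.05, with log2 fold changes of 0.35 to 0.44. It was also lost with DESeq2, at 0.41 (adjusted p = 0.068), with no filter on low counts, at 0.39 (adjusted p = 0.11, edgeR), and with the replicate number as a block, at 0.43 (adjusted p = 0.064, edgeR). On the log2(TPM + 1) scale the value was -0.02 (adjusted p = 0.95, limma), and with TPM rescaled by TMM it was 0.19 (adjusted p = 0.44, limma). The difference between 10 and 4 Hz was also lost on log2(TPM + 1), at -0.35 (adjusted p = 0.14, limma), but not with TPM rescaled by TMM, at -0.54 (adjusted p = 0.026, limma). Without the 4 libraries high in mitochondrial genes the change at 4 Hz against Control was 0.27 (adjusted p = 0.16, edgeR).

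Rbfox2, the broadly expressed RBFOX gene, made up 96.0% ± 1.76 (SD, n = 6) of the family's TPM in Control and 95.5% ± 1.05 at 4 Hz. The lowest, median and highest normalised CPM were 232, 250 and 260 in Control, 237, 279 and 296 at 1 Hz, 236, 278 and 290 at 4 Hz, and 239, 256 and 280 at 10 Hz. At both slower rates 4 of 6 libraries lay above every Control library. The log2 fold change was 0.13 at 1 Hz and 0.12 at 4 Hz, each with an SE of 0.07, and neither was called (adjusted p = 0.12 for both, edgeR). With the trend of counts on transcript length removed, a setting added after the data were seen, they were 0.23 and 0.27 and both passed, while on log2(TPM + 1) they were -0.17 and -0.23 and neither did.

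Mbnl3 was the MBNL gene called lower against Control in the edgeR fit of all libraries. Its counts ranged from 20 to 100, so it is measured less precisely than the other MBNL genes. The lowest, median and highest normalised CPM were 5.42, 6.34 and 8.08 in Control, 4.15, 5.02 and 8.40 at 1 Hz, 2.54, 4.48 and 5.37 at 4 Hz, and 4.67, 6.95 and 8.47 at 10 Hz. All 4 Hz libraries lay below all Control libraries. It fell by 0.53 on the log2 scale at 4 Hz (SE 0.19, adjusted p = 0.019, edgeR) and was higher at 10 Hz than at 4 Hz by 0.61 (SE 0.19, adjusted p = 0.011). Without 4 Hz replicate 1, the lowest library and the one with the smallest mitochondrial share, the change at 4 Hz was -0.42 (adjusted p = 0.057, edgeR).

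Mbnl1 and Mbnl2, the MBNL genes that act in adult muscle, were not called against Control in the edgeR fit of all libraries. Mbnl2 had a lowest, median and highest normalised CPM of 233, 257 and 270 in Control, 232, 255 and 321 at 1 Hz, 165, 221 and 267 at 4 Hz, and 241, 261 and 295 at 10 Hz. At 4 Hz 4 of 6 of its libraries lay below every Control library. Its log2 fold change at 4 Hz was -0.20 (SE 0.09, adjusted p = 0.068, edgeR), and it was higher at 10 Hz than at 4 Hz by 0.26 (adjusted p = 0.027). The former passed the threshold under DESeq2, at -0.24 (adjusted p = 0.046), and without 4 Hz replicate 5, at -0.27 (adjusted p = 0.024, edgeR), or replicate 6 (adjusted p = 0.02). The 10 Hz difference was lost without 4 Hz replicate 1, at 0.23, without 4 Hz replicate 4, at 0.205, or without 10 Hz replicate 6, at 0.24.

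Mbnl1 had a lowest, median and highest normalised CPM of 175, 194 and 208 in Control, 179, 206 and 247 at 1 Hz, 133, 188 and 207 at 4 Hz, and 186, 208 and 218 at 10 Hz. The ranges overlapped in all groups. Its log2 fold change was 0.13 at 1 Hz and -0.09 at 4 Hz (SE 0.09 for each), and without the 4 libraries high in mitochondrial genes the 1 Hz value was 0.24 (adjusted p = 0.046, edgeR). The make-up of the family stayed close to that of the Control, in which Mbnl2 held 65.1% ± 1.40 (SD, n = 6), Mbnl1 33.4% ± 1.65 and Mbnl3 1.49% ± 0.367 of the TPM. At 4 Hz the shares were 64.9% ± 1.87, 33.9% ± 1.92 and 1.25% ± 0.482. The summed TPM of the family was 219 ± 15.5 in Control and 153 ± 37.5 at 4 Hz.

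The TPM scale shifted the whole transcriptome, and the members with it. The median of all genes lay at -0.15 at 1 Hz and -0.23 at 4 Hz on the log2(TPM + 1) scale, over the 12603 genes tested on both scales. On the count scale it lay at 0.04 and 0.06, over all 13315 tested genes, and with TPM rescaled by TMM at -0.005 and 0.009. The members' median on log2(TPM + 1) was -0.19 at 1 Hz and -0.44 at 4 Hz, beside -0.14 and -0.21 over all genes of the TPM fit. On the count scale the members' median was 0.06 and -0.10. Whether the members differ from all genes in this was not tested. On TPM, limma called 0 of 10 members higher and 2 lower at 1 Hz, with 21.9% of the 13422 genes of that fit lower. At 4 Hz it called 0 higher and 6 lower, with 35.9% of genes lower. The 6 were Celf1 at -0.92, Rbm38 at -0.61, Mbnl3 at -0.59, Mbnl2 at -0.55, Mbnl1 at -0.52 and Celf2 at -0.36, whose adjusted p stood at 0.05 when rounded. Celf1 and Rbm38 were the members called lower on both scales at both slower rates. At 1 Hz the signs of Mbnl1, Mbnl2, Celf2, Rbm20, Rbfox1 and Rbfox2 differed between the scales, and at 4 Hz those of Rbm20, Rbm24, Rbfox1 and Rbfox2.

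**Figure D4:**
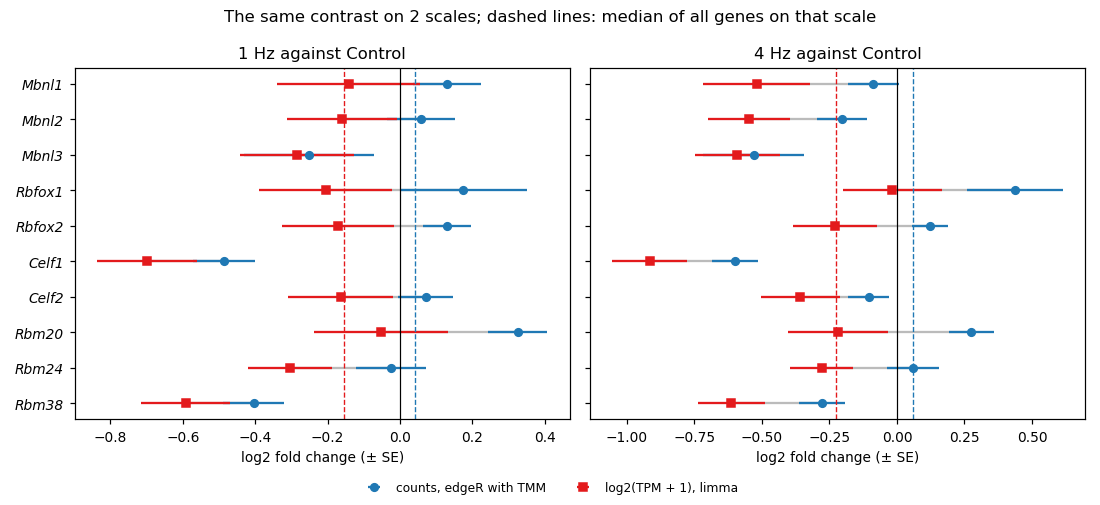
Log2 fold change against Control (horizontal axis, with SE) of each member at 1 Hz and 4 Hz, from counts with edgeR (blue circles) and from log2(TPM + 1) with limma (red squares). The dashed lines mark the median of all genes on each scale, which is 0.06 for counts and -0.23 for TPM at 4 Hz.

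At 10 Hz against Control, edgeR called 0 of 10 members, 0 at an unadjusted p under 0.05 as well, and DESeq2 called 0. The log2 fold changes ran from -0.25 for Rbfox1 to 0.09 for Mbnl1. Of all genes 0.0376% were called there. Between 4 and 1 Hz edgeR called 0 members and 0% of 13315 genes, while 3 members, Mbnl1, Mbnl2 and Celf2, stood at an unadjusted p under 0.05, as did 1465 genes, and DESeq2 called 0 members and 38 genes. Without the 4 libraries high in mitochondrial genes, 2 members were called lower at 4 than at 1 Hz, as were 914 of 13301 genes, with 492 higher. Between 10 and 1 Hz 2 members were higher and 1 lower, beside 14.8% and 13.1% of genes. Between 10 and 4 Hz 3 were higher and 2 lower, beside 21.9% and 24.4%. These contrasts share the libraries of each frequency.

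The spread between libraries of a group differed between the rates. The median coefficient of variation of the members' normalised CPM was 5.97% in Control, 12.5% at 1 Hz, 13.4% at 4 Hz and 7.31% at 10 Hz. It exceeded the Control value for 10 of 10 members at 1 and 4 Hz and for 8 of 10 at 10 Hz. The share of all tested genes with a larger value than in Control was 79.7% for 1 Hz, 72.2% for 4 Hz and 64.2% for 10 Hz. Without the 4 libraries high in mitochondrial genes, which leaves 4 libraries each at 1 and 4 Hz, the count was 9 of 10 members at both slower rates, beside 62.9% and 65.8% of genes. The members' median coefficient was then 10.2% at 1 Hz and 15.8% at 4 Hz.

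The ratio of estimated count to TPM is, up to a constant of each library, the abundance-weighted effective transcript length that the quantifier assigned to a gene. It was used as a gene-level readout of the estimated isoform mix. Only the median of each library was removed, so other differences between libraries in assigned length cannot be told apart from isoform mix. limma called 0 of 10 members at 1, 4 or 10 Hz, beside 0.169%, 1.35% and 0% of 10664 genes. At an unadjusted p under 0.05 there were 2 members at 1 Hz, Rbfox2 and Rbm20, 1 at 4 Hz, Rbm20, and none at 10 Hz. Of all 10664 genes 972 were past it in the 1 Hz comparison, 2881 in that of 4 Hz and 307 in that of 10 Hz. The SE of the log2 length difference ran from 0.03 for Mbnl2 to 0.17 for Rbfox1 at 4 Hz.

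Transcripts known as targets of these proteins, or of the PTBP splicing regulators outside the members, were examined as a list of 36 genes. Of these, 33 had enough counts to be tested. At 4 Hz 8 were higher and 3 lower, beside 27.5% and 23.9% of all genes, with a median log2 fold change of 0.16, where that of all genes was 0.06. At 1 Hz 4 were higher and 3 lower, beside 19.2% and 18.1%, with a median of 0.05, where that of all genes was 0.04. Between 10 and 4 Hz 4 were higher and 17 lower on the count scale, beside 21.9% and 24.4%, with a median of -0.30. On log2(TPM + 1) limma called 7 of 32 higher and 0 lower there, beside 4442 higher and 649 lower of 12603 genes. The median of the list was then 0.04, where that of all genes was 0.22. In estimated transcript length limma called 0 of 33 at each frequency against Control, with 8 at an unadjusted p under 0.05 at 1 Hz, 6 at 4 Hz and 2 at 10 Hz. On log2(TPM + 1) limma called 0 of 32 higher and 6 lower at 4 Hz, beside 35.9% of genes lower.

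The targets with the smallest p at 4 Hz in each direction were the following. Myog, the myogenic factor whose mRNA is bound by RBM24 and RBM38, fell by 1.47 on the log2 scale at 4 Hz (SE 0.07, edgeR), from a median of 590.0 CPM in Control to 203 at 4 Hz. Mef2a, a MADS-box factor of muscle genes, fell by 0.69, and Nfix, a factor of the switch from embryonic to fetal muscle, fell by 0.47. Pdlim3, a Z-disc protein, rose by 0.42, Dtna, a component of the dystrophin complex, by 0.27, and Ldb3, another Z-disc protein, by 0.28, whereas on log2(TPM + 1) these 3 stood at 0.09, -0.06 and -0.08 and none was called. Cdkn1a, which encodes p21 and whose mRNA is bound by RBM38, had a log2 fold change of 0.07 at 4 Hz, with median CPM of 962 in Control and 953 at 4 Hz, and was not called, and on log2(TPM + 1) it had the opposite sign, at -0.24.

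Other splicing regulators were examined as a list of 33 genes, and 24 of them had enough counts to be tested. At 1 Hz 5 were higher and 7 lower, beside 19.2% and 18.1% of all genes. At 4 Hz 3 were higher and 10 lower, beside 27.5% and 23.9%. At 10 Hz edgeR called 0, where it called 0.0376% of all genes. DESeq2 called 0 of the list as well, and 2 had an unadjusted p under 0.05. The median over the list was a log2 fold change of -0.03 for 1 Hz and -0.01 for 4 Hz, where that of all genes was 0.04 and 0.06. On log2(TPM + 1) limma called 13 of 23 lower and 0 higher at 4 Hz, beside 35.9% of genes lower. The median of the list was then -0.34, where that of all genes of the TPM fit was -0.21. Whether the list differs from the members in this was not tested.

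The 6 with the smallest p at 4 Hz included 5 that fell. Srpk1, a kinase of SR splicing factors, fell by 0.96 on the log2 scale, from a median of 50.4 CPM in Control to 24.6 at 4 Hz. Rbm10, an exon-skipping factor, fell by 0.84, and Qki, a regulator of muscle splicing and circular RNA, fell by 0.75. Khdrbs1, which encodes Sam68, fell by 0.50, and Elavl1, which encodes the mRNA-stabilising protein HuR, fell by 0.48. Rbm39, a splicing factor related to U2AF, rose by 0.60 on the count scale, from a median of 157 CPM to 242. On log2(TPM + 1) its change was 0.21 and was not called (adjusted p = 0.085, limma).

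**Figure D5:**
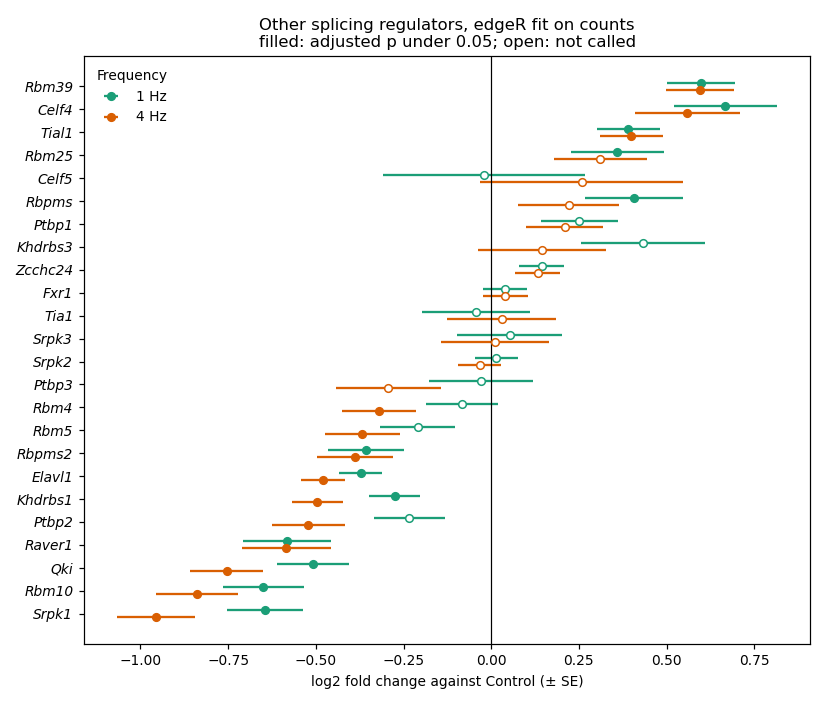
Log2 fold change against Control (horizontal axis, with SE) of the 24 other splicing regulators tested, at 1 Hz and 4 Hz, ordered by the 4 Hz value in the edgeR fit. Filled points passed an adjusted p of 0.05, from Srpk1 at -0.96 to Rbm39 at 0.60 for 4 Hz.

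The genes whose log2 CPM followed the leading members most closely over the 24 libraries were found by Pearson's r. For Celf1 they were Pum2 at 0.98, Smarcad1 at 0.98 and Noc3l at 0.97. Pum2, a translational repressor, fell by 0.80 on the log2 scale at 4 Hz, Smarcad1 fell by 1.11 and Noc3l fell by 1.20. For Rbm20 they were Rapgef2 at 0.90, Arnt at 0.89 and Dlc1 at 0.88, and for Rbm38 Mybph at 0.91, Pacsin3 at 0.90 and Psmd3 at 0.89. Mybph, a myosin-binding protein, fell by 0.46 at 1 Hz and by 0.24 at 4 Hz, beside 0.40 and 0.28 for Rbm38. All 24 libraries, with the differences between groups, enter each r, which is a description.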

How the data were processed

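RNA of 24 cultures (6 each of Control, 1, 4 and 10 Hz) was sequenced as 50-base read pairs after poly(A) selection, or after ribodepletion where input was low. Which libraries those were is not stated. The authors used nf-core/rnaseq with STAR and Salmon, GRCm39 and the Ensembl annotation, and the submitters' processing notes also list BWA 0.7.12-r1039 and bedtools 2.25.0. The deposited estimated counts per gene are not normalized, and the deposited TPM values are corrected for transcript length and sum to 1000000 per library. Depth was 8052369 to 18159144 estimated counts per library, and with a biological coefficient of variation of 14.8% this sets the precision.

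Estimated counts were rounded and tested with edgeR 4.0.16 in R 4.3.3 (filterByExpr with a minimum count of 10 and a total of 15, TMM, robust quasi-likelihood, 1 fit over all groups). limma 3.58.1 was fitted to log2(TPM + 1), for genes of at least 1 TPM in 6 libraries, and to log2(count / TPM), for genes with at least 20 counts in every library. p-values were adjusted by Benjamini-Hochberg over all genes fitted. DESeq2 1.42.0, other scalings, filters, pseudocounts and leaving out each library were alternatives.

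Named were all members, up to 6 other regulators and up to 3 targets per direction with the smallest p at 4 Hz, Myog and Cdkn1a, and the 3 genes most like each of the 3 members with the smallest p. Members and lists were chosen with earlier results of these data known. Replicate numbers do not mark shared cultures in the labels, and the 30-min experiment was not analysed here.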

Additional observations from a re-analysis of the deposited data

Results flagged for a closer look

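Of 40 combinations of a member and a group, 2 held a library set apart from the other 5, the gap to its nearest neighbour exceeding Dixon's critical share of the group's range for 6 samples. Whether 2 of 40 differs from what chance gives was not tested, and the combinations share the same 24 libraries. Of the libraries concerned, 4 Hz replicate 1 also had the lowest mitochondrial share, at 0.876% of TPM. Mbnl3 in 4 Hz replicate 1 stood at 2.54 CPM, while the other libraries of the group lay between 4.45 and 5.37 CPM, a gap of 0.676 of the range. Rbm20 in 4 Hz replicate 2 stood at 63.2 CPM, while the others lay between 46.7 and 52.4 CPM, a gap of 0.655 of the range.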

How the results depend on the processing

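The calls of Celf1 and Rbm38 at 1 and 4 Hz kept their direction and their side of the threshold of adjusted p in every fit run and with any 1 library left out. On the log2(TPM + 1) scale, on which the median of all genes moved to -0.15 at 1 Hz and -0.23 at 4 Hz, the sign turned for Mbnl1 (-0.141), Mbnl2 (-0.161), Celf2 (-0.163), Rbfox1 (-0.205), Rbfox2 (-0.171) and Rbm20 (-0.052) at 1 Hz, for Rbfox1 (-0.0167), Rbfox2 (-0.23), Rbm20 (-0.217) and Rbm24 (-0.279) at 4 Hz, for Mbnl3 at 10 Hz (-0.0138), and for Rbm20 between 10 and 4 Hz (0.0641). Among the targets it turned for Pdlim3 (-0.0897), Ldb3 (-0.157) and Cdkn1a (-0.14) at 1 Hz and for Dtna (-0.0636), Ldb3 (-0.0838) and Cdkn1a (-0.239) at 4 Hz. With a pseudocount of 0.1 the values were, in the same order, -0.144, -0.162, -0.17, -0.251, -0.174 and -0.0581, then -0.00867, -0.233, -0.23 and -0.284, then -0.0195 and 0.0686, and for the targets -0.0905, -0.159, -0.14, -0.0651, -0.0849 and -0.24. With TMM-scaled TPM the sign turned for Rbfox1 (-0.076), Rbfox2 (-0.00485) and Celf2 (-0.0016) at 1 Hz, Rbm24 at 4 Hz (-0.0177) and Mbnl3 at 10 Hz (-0.00851). With the length trend removed it turned for Mbnl1 (0.0338) and Celf2 (0.0362) at 4 Hz and Rbm24 at 1 Hz (0.0112), and without the 4 libraries high in mitochondrial genes for Rbfox1 at 1 Hz (-0.132) and Rbm24 at 4 Hz (-0.0012). The settings with TMM-scaled TPM, without the length trend and without the 4 libraries were chosen after seeing the data. The cause was not tested in any of these cases.

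Counts of members called moved as follows. Both TPM fits gave 0 higher at 1 Hz and at 4 Hz, 0 lower between 10 and 1 Hz, and 6 higher and 0 lower between 10 and 4 Hz, with 6 lower at 4 Hz, or 5 with the pseudocount of 0.1. TMM-scaled TPM gave 0 higher at 1 and 4 Hz, 0 lower between 10 and 1 Hz and 1 lower between 10 and 4 Hz. The length setting gave 3 higher at 1 Hz and 2 lower between 10 and 1 Hz. Without the 4 libraries 3 were higher at 1 Hz, 1 at 4 Hz, 2 lower between 4 and 1 Hz and 2 lower between 10 and 1 Hz. A log2 fold change over 0.5 left 0 higher and 0 lower at 1 Hz, 0 higher at 4 Hz, 0 and 0 between 10 and 1 Hz and 1 lower between 10 and 4 Hz. The count higher at 4 Hz was 1 with RLE factors, with DESeq2 and with the replicate block, and 0 with no filter, and DESeq2 called 5 higher between 10 and 4 Hz. With 1 library left out, 1 to 2 members were higher and 2 to 5 lower at 4 Hz, and 1 to 2 lower between 10 and 1 Hz. The log2 fold change then ran from -0.0028 to 0.0743 for Mbnl2 at 1 Hz, -0.00012 to 0.159 for Mbnl3 and -0.0414 to 0.0215 for Rbm20 at 10 Hz, and -0.121 to 0.0425 for Rbm24 at 1 Hz.

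Of the other splicing regulators, log2(TPM + 1) called 1 higher at 1 Hz and 0 at 4 Hz, the length setting 5 higher at 4 Hz, and a fold change over 0.5 left 2 higher and 4 lower at 1 Hz and 5 lower at 4 Hz, with 3 to 6 higher at 1 Hz when 1 library was left out. Of the targets, log2(TPM + 1) called 0 higher at both rates and 6 lower at 4 Hz, the length setting 13 higher at 4 Hz, DESeq2 5, and a fold change over 0.5 left 0 higher at both rates, with 5 to 10 higher at 4 Hz when 1 library was left out. In the length index the replicate block called 1 target at 1 Hz.

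Samples with the same replicate number did not deviate together (mean correlation -0.02, over 0.1 in 3 of 36 pairs, and 0 of 24 libraries closest to their own number). What the numbers stand for is not given in the labels. The block moved the call of Rbfox1 at 4 Hz and of no other member. Depth limits Mbnl3 and Rbfox1, which had 20 to 100 and 27 to 100 counts per library.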
